A study of Mus musculus with 26 samples.

Results

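The transcripts described here come from 10 genes that encode small leucine-rich proteoglycans (Fmod, Dcn, Lum, Bgn, Ogn and Prelp) and elastic fibre proteins (Fbln5, Fbn1, Eln and Mfap5). They were found by symbol, ignoring case, and all 10 were present among the 55391 gene rows of the count table. The list was selected on the response to alectinib in these libraries, in which Fmod and Fbln5 were among the largest rises, so the ratios of alectinib to DMSO given for the 10 genes are a description and carry no test. RNA sequencing was run on 3 murine lung cancer cell lines, EA1, EA2 and EA3, all driven by a fusion of Eml4 with the receptor tyrosine kinase gene Alk. Cultures received 100 nM alectinib, an ALK kinase inhibitor, or 0.1% DMSO, and 1 library was made for each line, treatment and day (1, 2, 3 and 5), which gives 24 libraries. The treatment text of the series lists days 1, 3, 5 and 7, whereas the label of each library gives these days, and the labels were followed. The 4 days of a line and treatment serve as its replicates. The labels do not say that the days were separate experiments, so an SD or a p-value below covers the spread between days and may be partly technical. Each line is a single established culture and stands for itself, not for a class of tumors.

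Total counts ran from 5780062 to 11732401 per library (median 9252878). Etv4, an ETS factor gene downstream of ALK and MAPK signaling that was used as a check of drug action, was lower with alectinib on all 4 days in each line, by 4.10 ± 0.40 in EA1, 6.57 ± 0.83 in EA2 and 4.09 ± 1.07 in EA3 (mean fall of log2 CPM ± SD, n = 4 days). A further DMSO library and alectinib library carry the label EA3, day 7. Across genes these correlated with the EA2 libraries of the same treatment at 0.942 to 0.988 and with the EA3 libraries at 0.852 to 0.889 (Pearson r of log2 CPM). Their proteoglycan counts went the same way: the library labelled EA3 DMSO day 7 held 326 Dcn counts and 5 Bgn counts, where the 4 other EA3 DMSO libraries held at most 1 Dcn count and at least 44 Bgn counts. Both day 7 libraries were left out of every comparison, since other lines have no day 7 and the study's methods give days 1 to 5. Results that change when they are added are named.

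Small leucine-rich proteoglycans are secreted proteins with a curved core of leucine-rich repeats that binds collagen fibrils and growth factors. Decorin (Dcn) and biglycan (Bgn) belong to class I and carry chondroitin or dermatan sulfate chains. Fibromodulin (Fmod), lumican (Lum) and prolargin (Prelp) belong to class II, and the first pair can carry keratan sulfate, while osteoglycin (Ogn, also called mimecan) belongs to class III. Elastic fibres have a core of cross-linked elastin (Eln) laid on microfibrils of fibrillin 1 (Fbn1). Fibulin 5 (Fbln5) brings tropoelastin and the lysyl oxidase enzymes to those microfibrils, and the microfibril protein MAGP2 (Mfap5) binds to fibrillin. In the lung these genes are known mainly from fibroblasts and smooth muscle, and elastic fibres give the alveoli their recoil.

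In GENCODE M21 on GRCm38, the build that the study calls mm10, 5 of the 6 small proteoglycan genes lie in 3 places where proteoglycan genes are neighbours. Fmod (chromosome 1, 134037254 to 134048277, plus strand, 3 exons) and Prelp (chromosome 1, 133910304 to 133921414, minus strand, 3 exons) are 115.8 kb apart, with no other protein-coding gene between them and with Optc a further 2.3 kb beyond Prelp. Dcn (chromosome 10, 97479609 to 97518143) and Lum (97565128 to 97572703) are 47.0 kb apart on the plus strand and are followed by Kera and Epyc. Ogn (chromosome 13, 49608046 to 49624501) follows Ecm2, Aspn and Omd on the plus strand and lies within the span of Cenpp, which is on the other strand and shares no exon base with it. Bgn is the only one of the 10 genes on chromosome X (73483602 to 73495933), as are Fbln5 on chromosome 12 (101746565 to 101819055), Fbn1 on chromosome 2 (125300594 to 125507993), Eln on chromosome 5 (134702593 to 134747323) and Mfap5 on chromosome 6 (122505845 to 122529290). Genes on the other strand cover 9.7% of the Prelp exon bases, 20.1% of those of Fbn1 and 3.3% of those of Eln. The library kit marks strand, but which strand setting was counted is not given in the sources used here.

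The promoters of 3 proteoglycan genes that were higher with alectinib on all 4 days in each line, and of Fbln5, whose mean ratio exceeded its SD in EA2 only, are shown so that their sequences can be compared. Each window holds 300 bases of RefSeq sequence (GRCm38.p6), 250 before and 50 after the annotated start, written 5′ to 3′ on the strand of the gene. Capitals mark matches to the letters searched on both strands: TATAAA, the core promoter box, TGANTCA, known from AP-1, GTAAACA, known from forkhead factors, GGAATG, known from TEAD factors, CAGACA, known from SMAD factors, and the CArG box of serum response factor.
Fmod promoter, chr1:134037004-134037303, plus strand: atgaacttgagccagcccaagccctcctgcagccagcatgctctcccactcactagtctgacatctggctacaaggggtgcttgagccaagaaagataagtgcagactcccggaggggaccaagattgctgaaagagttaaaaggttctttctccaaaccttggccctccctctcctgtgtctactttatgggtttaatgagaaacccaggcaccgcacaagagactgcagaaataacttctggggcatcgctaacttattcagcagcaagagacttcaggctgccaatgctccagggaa
Prelp promoter, chr1:133921352-133921651, minus strand: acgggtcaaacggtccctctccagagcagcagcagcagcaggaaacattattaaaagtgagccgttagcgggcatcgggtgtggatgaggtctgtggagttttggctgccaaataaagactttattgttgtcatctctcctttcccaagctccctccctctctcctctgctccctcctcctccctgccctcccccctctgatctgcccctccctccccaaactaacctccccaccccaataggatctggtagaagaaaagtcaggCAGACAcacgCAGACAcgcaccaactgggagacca
Ogn promoter, chr13:49607765-49608064, plus strand: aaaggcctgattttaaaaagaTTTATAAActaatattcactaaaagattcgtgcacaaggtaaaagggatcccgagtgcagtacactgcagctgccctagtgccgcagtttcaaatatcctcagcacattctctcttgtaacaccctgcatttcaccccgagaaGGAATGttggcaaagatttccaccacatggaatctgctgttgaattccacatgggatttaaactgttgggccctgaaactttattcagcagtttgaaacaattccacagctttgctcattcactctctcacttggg
Fbln5 promoter, the second of its annotated starts, chr12:101818435-101818734, minus strand: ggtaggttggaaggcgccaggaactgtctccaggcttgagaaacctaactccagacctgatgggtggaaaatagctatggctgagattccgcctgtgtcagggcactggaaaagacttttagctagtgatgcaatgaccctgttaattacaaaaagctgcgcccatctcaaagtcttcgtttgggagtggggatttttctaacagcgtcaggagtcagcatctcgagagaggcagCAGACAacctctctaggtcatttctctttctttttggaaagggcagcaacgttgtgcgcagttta
Fmod held none of the motifs in this window, and neither did the first Fbln5 window (chr12:101819070-101819369, not shown). Prelp held CAGACA at bases 16 and 26 after the start, the shown Fbln5 window held it at -15, and 21% of the 32851 promoter windows of the genome hold at least 1 copy. Ogn held TATAAA at -227, which overlaps a match on the other strand at -229, and GGAATG at -86, and these motifs occur in 13.6% and 14.7% of windows. TGANTCA (7.81% of windows), GTAAACA (3.65%) and the CArG box (1.63%) were in none of the 7 windows held for Fmod, Prelp, Ogn, Fbln5, Fbn1 and Bgn. A match is only a run of letters and no binding was measured. GC content was 51.0% for Fmod, 55.3% for Prelp, 42.3% for Ogn, 48.7% for this Fbln5 window and 65.7% for its first, against a median of 52.7% over all windows. Dcn, Lum, Eln and Mfap5 had no window in the table used.

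Over all genes tested (14264), edgeR's quasi-likelihood test called 18% higher and 15.8% lower with alectinib in EA1, 13% higher and 11.3% lower in EA2, and 16.5% higher and 15.8% lower in EA3 (Benjamini-Hochberg adjusted p under 0.05). Of the 10 genes, 7 had enough counts to be tested, and those past this threshold upward numbered 5 for EA1, 4 for EA2 and 5 for EA3. Downward there were 0 in each line. At an unadjusted p under 0.05, and also by DESeq2, 1 gene (Bgn in EA2) was lower. Because the list was selected on this contrast, nothing is read from those counts. Lum, Eln and Mfap5 did not pass the filter on low counts, and their counts are given as they stand. In cultures of a line, more transcript per cell cannot be told apart from a larger share of cells that make it.

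Fmod reached the highest daily ratio of the 10 genes, a log2 difference of 9.12 on day 5 of EA3, and it was higher with alectinib on all 4 days in each line. In EA1 its counts on days 1, 2, 3 and 5 were 2, 17, 3 and 18 with DMSO and 60, 305, 1247 and 3632 with alectinib. The alectinib libraries of EA1 went from 5.74 CPM on day 1 to 303 CPM on day 5, a 52.7-fold difference, and each day lay above the day before it. Every alectinib library was above every DMSO library of the line, and the pooled ratio over the 4 days was 110 (95% counting interval 80.8 to 154). In EA2 the DMSO counts were 1, 0, 1 and 3 and the alectinib counts 8, 30, 634 and 1316, a pooled ratio of 462 (198 to 1420). Here day 1, at 0.777 CPM, already lay above the highest DMSO library of the line (0.25 CPM), day 2 was at 4.98 CPM, and days 3 and 5 held most of the counts. In EA3 no Fmod read was counted in any DMSO library, against 33, 107, 106 and 1120 with alectinib. Set against a floor of 3 counts over the 4 DMSO libraries, this is at least 369-fold higher. On the log2 CPM scale (prior count of 2), EA1 had a mean daily difference of 5.64 ± 2.02, EA2 of 5.60 ± 3.07 and EA3 of 6.09 ± 2.19 (SD, n = 4 days), a scale that understates genes with few DMSO counts. Counting intervals and floors cover counting error alone.

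Prelp, the neighbour of Fmod, encodes a proteoglycan with a heparin-binding amino terminus that anchors basement membrane to connective tissue. EA1 held 40, 133, 29 and 153 counts with DMSO and 272, 545, 1719 and 4501 with alectinib on days 1, 2, 3 and 5, a pooled ratio of 16.7 (15.0 to 18.6). All alectinib libraries of EA1 were above all its DMSO libraries, and by day 5 the level was 375 CPM. In EA2 the gene was near the floor with DMSO (0, 1, 3 and 3 counts) and reached 5, 6, 90 and 93 counts with alectinib. EA3 differed in its course: 8, 34, 5 and 38 counts with DMSO stood against 38, 72, 21 and 1455 with alectinib, so the groups overlapped and the day 5 library held nearly all of the counts. Averaged over days, the log2 difference of EA1 was 3.61 ± 1.64, that of EA2 3.06 ± 1.55 and that of EA3 2.18 ± 1.65. DMSO cultures of EA1 and EA3 held more Prelp on days 2 and 5 than on days 1 and 3, so the daily ratios of this gene also carry the swings of its control.

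Lum, the third class II gene, is a regulator of collagen fibril spacing and was read above the floor of 3 counts only in EA1. All 4 DMSO libraries of that line were at 0, and the alectinib libraries held 2, 4, 24 and 41 counts, at least 19.9-fold higher against the floor of 3 counts over the group. In EA2 all 8 libraries were at 0, and in EA3 the highest count was 1. The limit of 3 counts over the 4 libraries of a group stands for 0.0872 CPM in EA2 with alectinib, below the 0.191 CPM of EA1 on day 1.

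Ogn, the class III gene, was higher with alectinib on all 4 days in each line. EA1 held 1, 1, 0 and 0 counts with DMSO and 66, 35, 88 and 395 with alectinib. In EA2 the counts were 7, 6, 8 and 16 against 239, 203, 413 and 467. EA3 had 0, 3, 0 and 4 against 41, 132, 159 and 305. Already on day 1 each alectinib library was above all DMSO libraries of its line. The daily log2 difference averaged 5.19 ± 1.55 for EA1, 5.08 ± 0.30 for EA2 and 5.05 ± 0.84 for EA3. Pooled ratios were 246 in EA1 (interval 67.7 to 2030, from 2 DMSO counts), 41.5 in EA2 (29.9 to 59.2) and 73.7 in EA3 (35.6 to 184).

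Dcn and Bgn, the class I genes, stood at very different levels in the lines without the drug, as given further on. Dcn, which encodes the collagen-binding and TGF-beta-binding decorin, had DMSO counts of 0, 1, 0 and 1 in both EA1 and EA3, and rose with alectinib to 9, 15, 63 and 114 in EA1 and to 8, 35, 31 and 447 in EA3. The mean daily log2 difference was 3.67 ± 1.40 in EA1 and 4.13 ± 2.04 in EA3, with every alectinib library above every DMSO library. In EA2 the gene was already present at 416, 329, 543 and 477 DMSO counts. Its alectinib counts there were 1657, 452, 809 and 289, highest on day 1 and, on day 5, 31.5 CPM, below the lowest DMSO library of the line at 36.7 CPM. The mean daily difference of 0.78 ± 1.01 in EA2 was smaller than its SD. Adding the 2 libraries labelled EA3 day 7 moved the fitted log2 fold change of Dcn in EA3 from 7.05 to 3.56.

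Bgn, which encodes a proteoglycan of bone and vessel wall that also signals to innate immune receptors, was highest in EA1. Its counts there were 14429, 22244, 13287 and 24313 with DMSO and 19379, 21404, 30800 and 39605 with alectinib, or 2220 ± 810 CPM and 2730 ± 662 CPM (mean ± SD, n = 4 days). These groups overlapped, and the mean daily log2 difference was 0.33 ± 0.49. In EA2 the counts were 20, 13, 22 and 27 with DMSO and 8, 5, 13 and 4 with alectinib, lower on all 4 days, by 1.12 ± 0.58. EA3 held 102, 81, 44 and 57 counts with DMSO and 47, 53, 57 and 312 with alectinib. The day 5 library of EA3 was high, the other alectinib libraries were below the lowest DMSO library in CPM, and the mean difference was -0.05 ± 1.29.

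**Figure D1:**
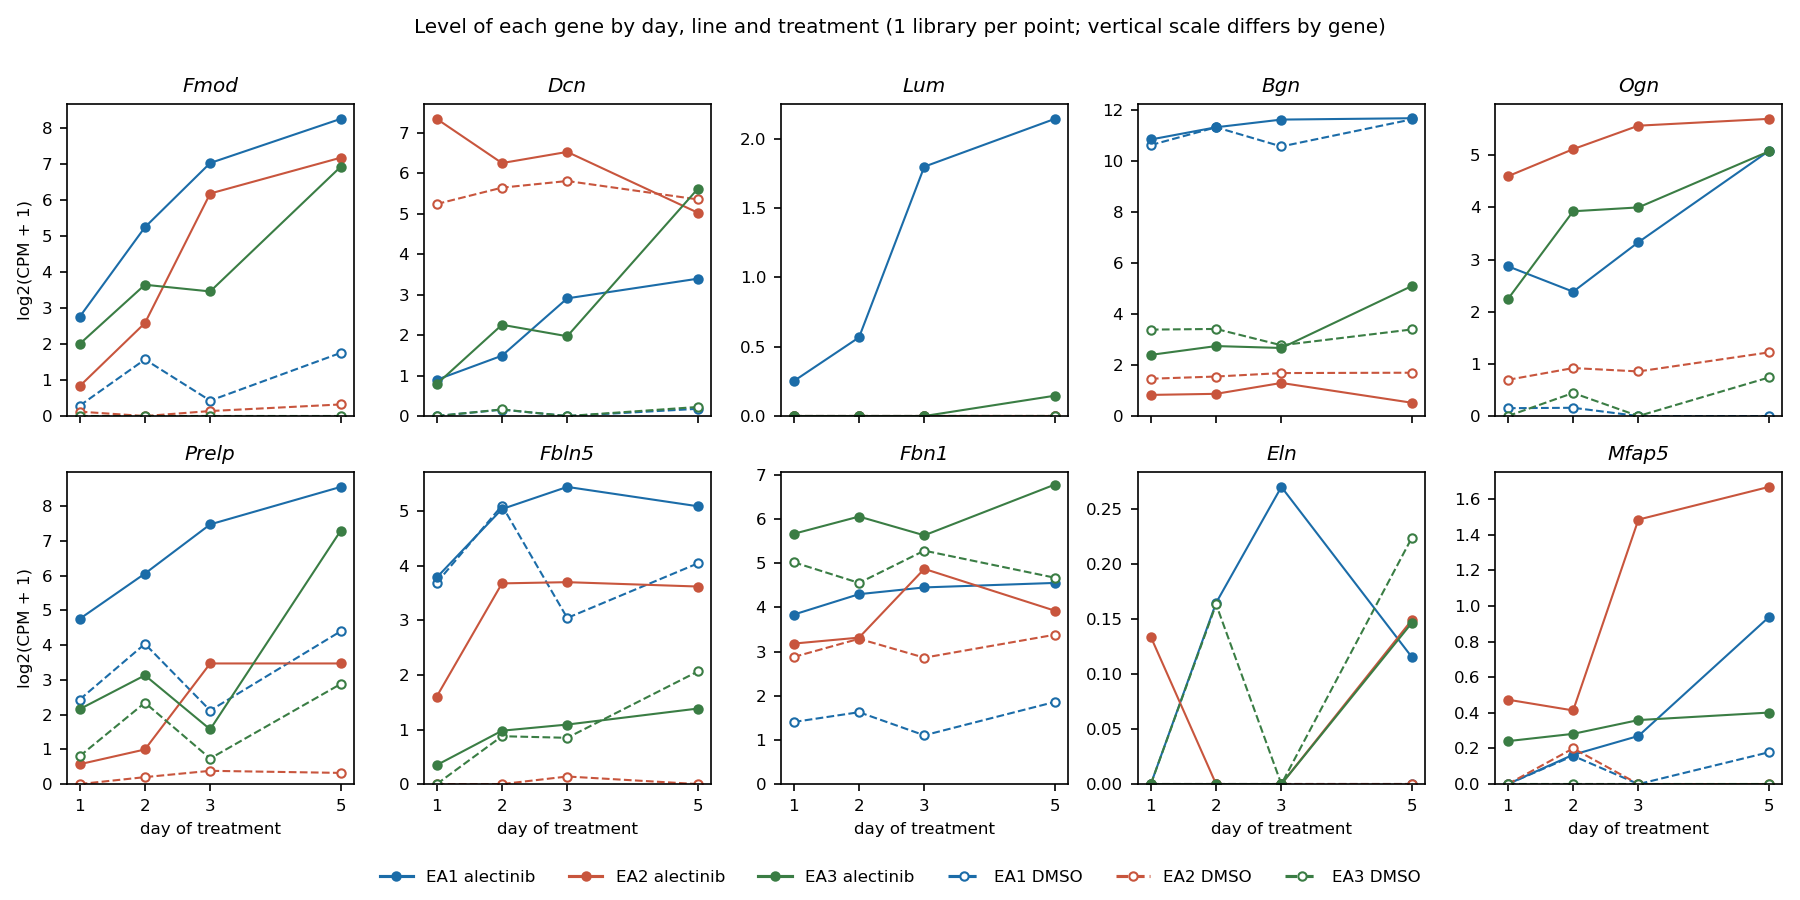
Level of each of the 10 genes as log2(CPM + 1) (vertical axis, scaled per gene) on days 1, 2, 3 and 5 (horizontal axis) in EA1, EA2 and EA3 with DMSO (open points, dashed) or alectinib (filled points, solid), 1 library per point. Fmod and Ogn separate by treatment in all lines, Bgn separates EA1 from the other lines, and the EA3 alectinib lines of Fmod, Dcn, Bgn and Prelp climb most between days 3 and 5.

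Per kilobase of exon, the makeup of the small proteoglycan transcripts differed between lines and shifted with alectinib. In EA1 with DMSO, Bgn was 98.8 to 99.6% of the summed CPM per kb of the 6 genes, and its share with alectinib was 96.3% on day 1 and 71.9% on day 5, when Prelp was 13.8% and Fmod 12.2%. In EA2, Dcn was 86.8 to 92.2% with DMSO. With alectinib its share was 74.3% on day 1, 46.1% on day 2, 26.7% on day 3 and 7.55% on day 5, while Fmod went from 0.633% to 60.7%. In EA3 with DMSO, Bgn led on days 1 to 3 (55.3 to 88.3%) and Prelp on day 5 (48.7%). Ogn led with alectinib on days 1 to 3 (35.1 to 54.1%), and on day 5 Prelp held 40.7% and Fmod 34.3%. The summed level was 252 to 531 CPM per kb in EA1 with DMSO, against 6.84 to 10.2 in EA2 and 1.15 to 3.62 in EA3. On day 5 of alectinib EA1 reached 752, EA2 71.5 and EA3 106 CPM per kb.

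**Figure D2:**
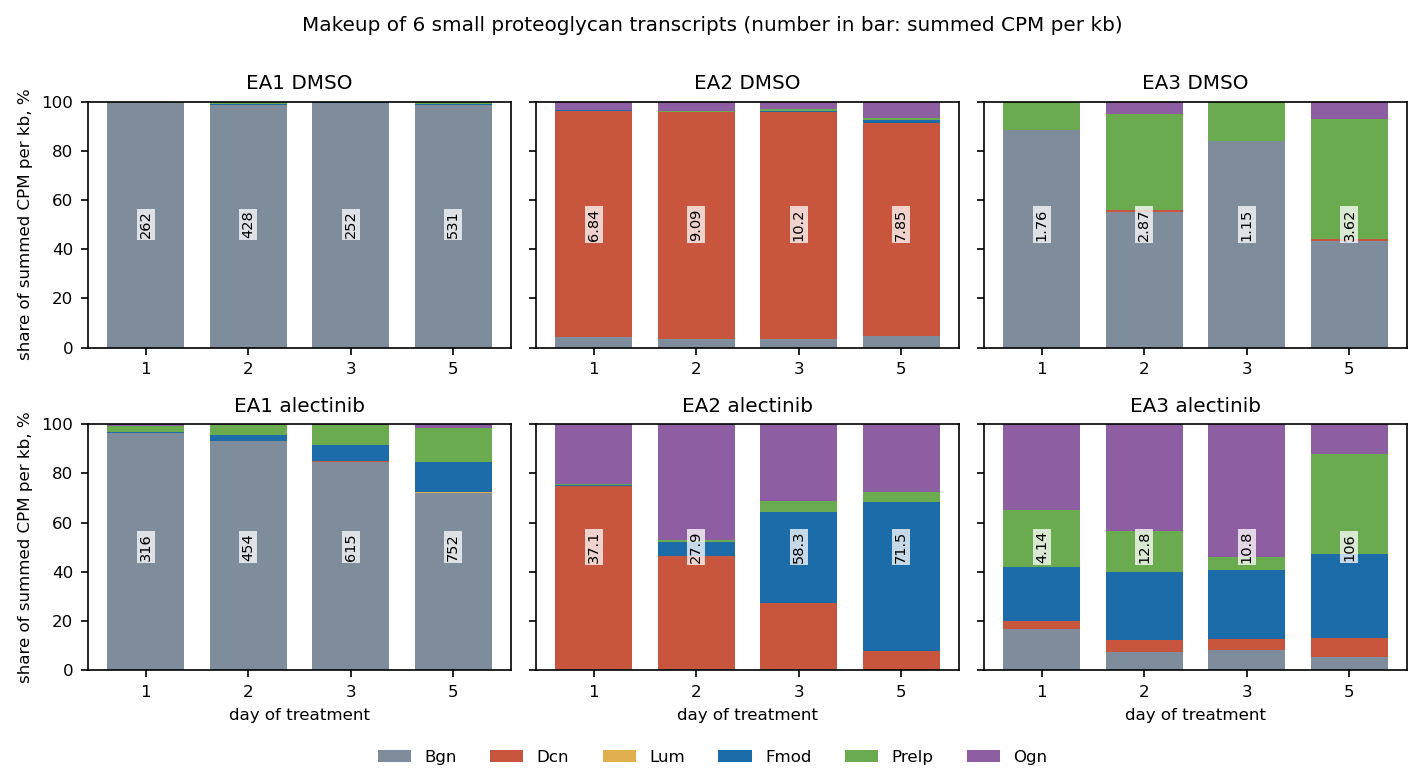
Share of each of the 6 small proteoglycan transcripts in their summed CPM per kb of exon (vertical axis, percent) by day (horizontal axis), line (columns) and treatment (rows), 1 library per bar, with the summed CPM per kb written in the bar. Bgn fills the EA1 bars, Dcn gives way to Fmod and Ogn in EA2, and EA3 moves from Bgn and Prelp to Ogn, Fmod and Prelp.

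Of the elastic fibre genes, Fbln5 rose in EA2, and its treatments overlapped in EA1 and EA3. EA2 held 0, 0, 1 and 0 counts with DMSO and 21, 71, 107 and 104 with alectinib, a pooled ratio of 352 whose interval is wide because it rests on 1 DMSO count (62.7 to 13900). EA1 expressed the gene without the drug, at 108, 288, 63 and 118 counts, and held 134, 265, 413 and 397 with alectinib, so the groups overlapped and the mean daily log2 difference of 0.91 ± 1.18 was smaller than its SD. In EA3 the counts were 0, 7, 6 and 19 with DMSO and 3, 9, 12 and 15 with alectinib, a difference of 0.21 ± 0.86. The difference in EA2 was 5.05 ± 1.13. On day 5 of alectinib, EA1 stood at 33.1 CPM of Fbln5, EA2 at 11.3 CPM and EA3 at 1.61 CPM. With the 2 libraries labelled EA3 day 7 added, its fitted log2 fold change in EA3 went from 0.05 to 1.06, and without day 3 that of EA2 went from 7.89 to 9.23.

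Fbn1, the microfibril backbone, was higher with alectinib on all 4 days in each line, most in EA1. EA1 counts were 15, 18, 10 and 20 with DMSO and 139, 155, 203 and 270 with alectinib, a daily log2 difference of 3.21 ± 0.50. EA3 counts were 338, 188, 285 and 146 with DMSO and 547, 609, 516 and 1015 with alectinib, a difference of 1.17 ± 0.82, and neither line had an alectinib library within its DMSO range of CPM. In EA2 the counts were 72, 59, 62 and 113 against 83, 54, 252 and 130, the groups overlapped, and the difference of 0.77 ± 0.94 was smaller than its SD. Gm9913 on the other strand shares 20.1% of the Fbn1 exon bases. How reads there were counted is not given in the sources used here, and their effect on Fbn1 was not tested.

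Eln, the elastin gene itself, was not detectable at a usable level in any group: the highest count in the 24 libraries was 2, and 16 of them were at 0. Mfap5 was also low. In EA2 it held 0, 1, 0 and 0 counts with DMSO and 4, 2, 16 and 20 with alectinib, a pooled ratio of 48.8 that rests on 1 DMSO count (8.29 to 1970). In EA1 the day 5 alectinib library held 11 counts of the 14 in that group, and in EA3 the alectinib libraries held 2 or 3 counts each and the DMSO libraries 0. Across the elastic fibre genes, the fibulin and fibrillin transcripts were higher with alectinib on all 4 days in at least 1 line while the elastin transcript stayed at the detection limit in all of them.

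**Figure D3:**
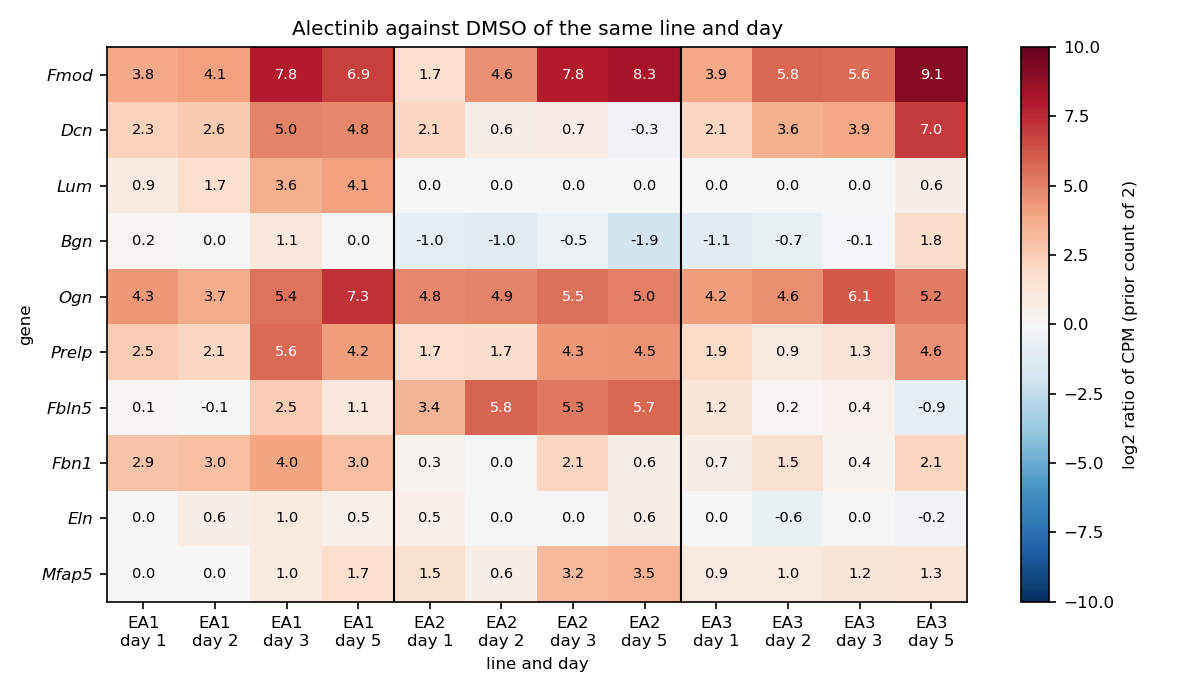
Log2 ratio of CPM, alectinib to DMSO of the same line and day (prior count of 2), for the 10 genes (rows) in EA1, EA2 and EA3 on days 1, 2, 3 and 5 (columns), with the ratio written in each cell and red for higher with alectinib. Ogn is red on every day in every line, Fmod is red throughout with its deepest cell on day 5 of EA3, Fbln5 is deep red in EA2 alone, and Bgn is blue on every day in EA2 and on days 1 to 3 in EA3.

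Whether the lines differed without the drug was tested in the 12 DMSO libraries, a contrast that did not choose the 10 genes, although the same libraries are the denominators of the ratios above. edgeR's quasi-likelihood test called 29.3% of 12886 genes between EA2 and EA1, 22.2% between EA3 and EA1 and 25.6% between EA3 and EA2, in either direction. Of the 10 genes, 5 had enough DMSO counts to be tested (Dcn, Bgn, Prelp, Fbln5 and Fbn1). Dcn, Prelp and Fbln5 passed the filter only through the line in which they were high, which favours a difference from that line. For these genes the fitted differences are given as a description with no p. Bgn and Fbn1 had at least 10 counts in every DMSO library, and both were past the threshold between every pair of lines.

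Bgn stood at 2220 ± 810 CPM in EA1, 8.65 ± 1.86 CPM in EA3 and 2.04 ± 0.235 CPM in EA2 (n = 4 days each), with no overlap between any lines. The log2 difference was -10.03 (SE 0.38, edgeR adjusted p = 3.33e-09) for EA2 against EA1, -7.97 (SE 0.35, adjusted p = 1.34e-08) for EA3 against EA1 and 2.06 (SE 0.30, adjusted p = 0.000171) for EA3 against EA2. Dcn was highest in another line, with 45.1 ± 8.36 CPM in EA2 and at most 1 count per library in EA1 and EA3. Its log2 difference was 9.30 (SE 0.54) for EA2 against EA1 and -9.21 (SE 0.54) for EA3 against EA2. Between EA3 and EA1 the difference of 0.09 had a 95% interval from -2.13 to 2.30, with 2 counts in each line.

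Fbn1 was graded over the lines, with 29.1 ± 7.07 CPM in EA3, 7.71 ± 1.63 CPM in EA2 and 1.88 ± 0.631 CPM in EA1, and no overlap between neighbours in that order. EA3 was above EA2 by 1.91 (SE 0.28, edgeR adjusted p = 0.000197) and EA2 above EA1 by 2.07 (SE 0.30, adjusted p = 0.000156) on the log2 scale. Fbln5 was highest in EA1 and lowest in EA2, at 17.0 ± 11.4 CPM in EA1, 1.21 ± 1.37 CPM in EA3 and 1 count in all of EA2. Its log2 difference was -3.87 (SE 0.81) for EA3 against EA1, without overlap, and 4.86 (SE 1.35) for EA3 against EA2, with overlapping groups. Prelp was at 10.8 ± 8.27 CPM in EA1, 2.96 ± 2.77 CPM in EA3 and 0.176 ± 0.133 CPM in EA2. EA2 lay below all libraries of EA1 (difference -5.80, SE 1.00) and of EA3 (3.95 for EA3 against EA2, SE 1.00), while EA3 and EA1 overlapped (-1.85, SE 0.77).

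The other genes had too few DMSO reads to test. Fmod held 40 counts over the 4 DMSO libraries of EA1, 5 in EA2 and 0 in EA3. Ogn held 37 in EA2, 7 in EA3 and 2 in EA1, and EA2 was above EA1 in every library.

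**Figure D4:**
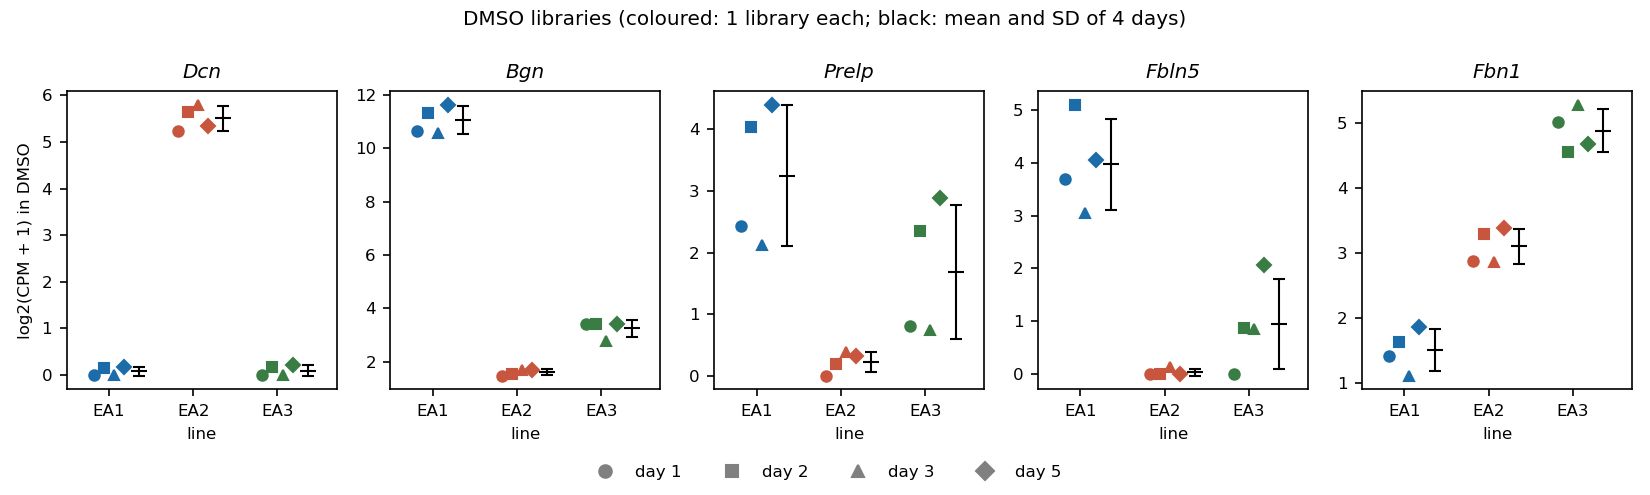
DMSO level as log2(CPM + 1) (vertical axis) of the 5 genes with enough DMSO counts to test in EA1, EA2 and EA3 (horizontal axis), 1 coloured point per library with its day as the symbol, and the mean and SD of the 4 days in black. Bgn is highest in EA1, Dcn in EA2 and Fbn1 in EA3, and Prelp in EA1 and EA3 spreads by day.

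Control cultures were also tested for a trend over the days, as a slope of log2 expression per doubling of days common to the 3 lines. The test called 17.1% of the 12886 genes, a count of 2207 that was 494 without day 5 and 0 without day 1, when 1801 of 12986 genes still had an unadjusted p under 0.05. None of the 5 testable genes passed the edgeR threshold after adjustment, and 1 of them had an unadjusted p under 0.05. That gene was Prelp, with a slope of 0.88 (95% interval 0.15 to 1.62, edgeR adjusted p = 0.089), and by DESeq2 its slope of 0.95 passed. Slopes of the others were 0.64 for Fbln5 (-0.27 to 1.55), 0.16 for Dcn (-0.30 to 0.63), 0.16 for Bgn (-0.11 to 0.43) and 0.10 for Fbn1 (-0.18 to 0.38), with adjusted p from 0.305 to 0.633. The common slope hides differences between lines. In EA1, EA2 and EA3 alone it was -0.09, 0.40 and 2.14 for Fbln5 and 0.85, 0.08 and 1.06 for Dcn. Fbln5 held 1 DMSO count in EA2, and Dcn held 2 each in EA1 and EA3.

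Other genes of these pathways were read beside the 10. Of 12 other small leucine-rich proteoglycan genes, 4 had enough counts to test, and those called higher numbered 3 for EA1, 2 for EA2 and 2 for EA3, against 0 lower, where 18%, 13% and 16.5% of all genes were called higher. Lower at an unadjusted p under 0.05 was 1 gene, Tsku in EA3, and by DESeq2 0. Omd (osteomodulin), the neighbour of Ogn, passed the filter only through alectinib libraries, and without it 2, 1 and 1 of 3 genes were called higher. It held 2, 56 and 6 counts with DMSO and 40, 240 and 71 with alectinib over the 4 libraries of EA1, EA2 and EA3, and every alectinib library lay above every DMSO library of its line. Its fitted log2 change ± SE for EA1, EA2 and EA3 was 3.79 ± 0.99, 2.38 ± 0.63 and 3.08 ± 0.83, given with no p. Its highest mean was 6.89 CPM, in EA2 with alectinib. Tsku (tsukushi, a class IV member) rose in EA1 and EA2 by 1.50 ± 0.24 and 1.31 ± 0.24 and was at -0.52 ± 0.24 in EA3, past the threshold in the first lines only (adjusted p = 0.000511, 0.00138 and 0.107). Podnl1 rose in EA1 (1.64 ± 0.36) and EA3 (1.38 ± 0.34) and stood at 129 CPM in EA2 with DMSO, where the fitted change was 0.39 ± 0.30. The remaining neighbours stayed near 0: Kera had no count in any library, and Aspn, Ecm2 and Epyc had at most 5 counts per library. Optc, next to Prelp, held 0 counts with DMSO and 27 with alectinib over the 4 libraries of EA1, 1 and 17 in EA3 and 2 and 4 in EA2, too few to test. Over the 3 genes without Omd, the median fitted log2 changes of the lines in the same order were 1.50, 0.39 and -0.16, beside 0.03, 0.00 and 0.04 over all genes.

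Among 24 genes of elastic fibre and microfibril assembly, 19 were tested. In EA1, 9 were called higher and 0 lower, in EA2 9 higher and 3 lower, and in EA3 9 higher and 0 lower. Over all genes, 18%, 13% and 16.5% were called higher and 15.8%, 11.3% and 15.8% lower in the same lines. Fbln7 and Emilin1 passed the filter only through alectinib libraries, and without them 8, 7 and 8 of 17 genes were called higher, with median log2 changes of 0.72, 0.72 and 0.70. For the counts of 0, 1 gene was lower at an unadjusted p under 0.05 (Ltbp3 in EA1) and 0 by DESeq2. Fbln7, a short fibulin, had fitted log2 changes of 2.55 ± 0.41 (EA1), 3.73 ± 1.04 (EA2, from 0 DMSO and only 6 alectinib counts) and 3.35 ± 0.44 (EA3). Set against the floor of 3 counts, the EA2 ratio is at least 2.32-fold. Of the 5 lysyl oxidase genes, whose enzymes cross-link elastin and collagen, 4 were called higher in 2 lines each and 1 in none. Loxl1 rose in EA1 (3.18 ± 0.46) and EA3 (2.69 ± 0.40), Loxl2 in EA1 (2.96 ± 0.34) and EA3 (1.03 ± 0.31), Lox in EA2 (1.77 ± 0.46) and EA3 (1.83 ± 0.39), and Loxl4 in EA2 (1.80 ± 0.26) and EA3 (1.08 ± 0.26). Loxl3 was at 0.60 ± 0.46, -1.01 ± 0.43 and -0.19 ± 0.44 in EA1, EA2 and EA3 (adjusted p = 0.334, 0.108 and 0.775). Ltbp2, a latent TGF-beta binding protein of microfibrils, rose most in EA3, from 30.8 ± 14.4 to 289 ± 194 CPM (log2 change 3.14 ± 0.41, adjusted p = 0.000122), and in EA1 by 1.38 ± 0.45. Efemp1 (fibulin 3) rose in EA1 (5.16 ± 0.59, from 1 DMSO count) and in EA2 from 20.7 ± 3.87 to 82.2 ± 23.9 CPM (1.99 ± 0.20, adjusted p = 1.64e-05). Fbln1 was called in opposite directions, higher in EA1 (2.06 ± 0.55, adjusted p = 0.0123) and lower in EA2 (-1.75 ± 0.53, adjusted p = 0.0292). Thsd4 was also called lower in EA2, from 50.9 ± 16.6 to 8.28 ± 4.18 CPM (-2.64 ± 0.37, edgeR adjusted p = 0.000214). So was Ltbp3 (-0.88 ± 0.20, edgeR adjusted p = 0.00634). Mfap4 had no count in any library and Fbn2 at most 1. Leaving out day 3 brought the calls from 9 to 5 in EA1, and leaving out day 2 brought them from 9 to 5 in EA3.

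Of 26 listed genes for enzymes that build and sulfate the glycosaminoglycan chains, 22 were tested, with 5 higher and 5 lower in EA1, 4 higher and 5 lower in EA2, and 8 higher and 3 lower in EA3. Over all genes, 18%, 13% and 16.5% were called higher and 15.8%, 11.3% and 15.8% lower. Ust and Chst3 passed the filter only through alectinib libraries, and without them 4, 3 and 7 of 20 genes were called higher and 5, 5 and 3 lower, with medians of 0.14, -0.04 and 0.23. Chst1, a keratan sulfate sulfotransferase, fell in all lines (-1.46 ± 0.33, -1.59 ± 0.33 and -3.21 ± 0.36 for EA1, EA2 and EA3, adjusted p = 0.00423, 0.00347 and 4.11e-05). Csgalnact1, which starts chondroitin chains on the linker, also fell in all of them (-0.99 ± 0.25, -1.98 ± 0.26 and -2.47 ± 0.31). Chst12, a chondroitin 4-sulfotransferase, rose in all of them (2.23 ± 0.37, 1.55 ± 0.35 and 1.43 ± 0.35), and its relative Chst11 in EA1 (1.76 ± 0.32) and EA3 (1.58 ± 0.33). Dse, the epimerase that turns chondroitin into dermatan sulfate, rose in EA2 from 59.8 ± 4.15 to 182 ± 54.0 CPM (1.59 ± 0.17, adjusted p = 3.26e-05) and slightly in EA1 (0.50 ± 0.17). Ust, a uronyl 2-sulfotransferase, was at 2.84 ± 0.99 in EA1, from 1 DMSO count, and at 1.55 ± 0.48 in EA3. Chst15 rose in EA3 (1.73 ± 0.40) and fell in EA2 (-1.14 ± 0.39, adjusted p = 0.0484), and B4galt4, a galactosyltransferase of keratan sulfate, fell in EA1 (-1.49 ± 0.29) and rose in EA3 (1.10 ± 0.35). Leaving out day 3 brought the calls in EA1 from 10 to 5.

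**Figure D5:**
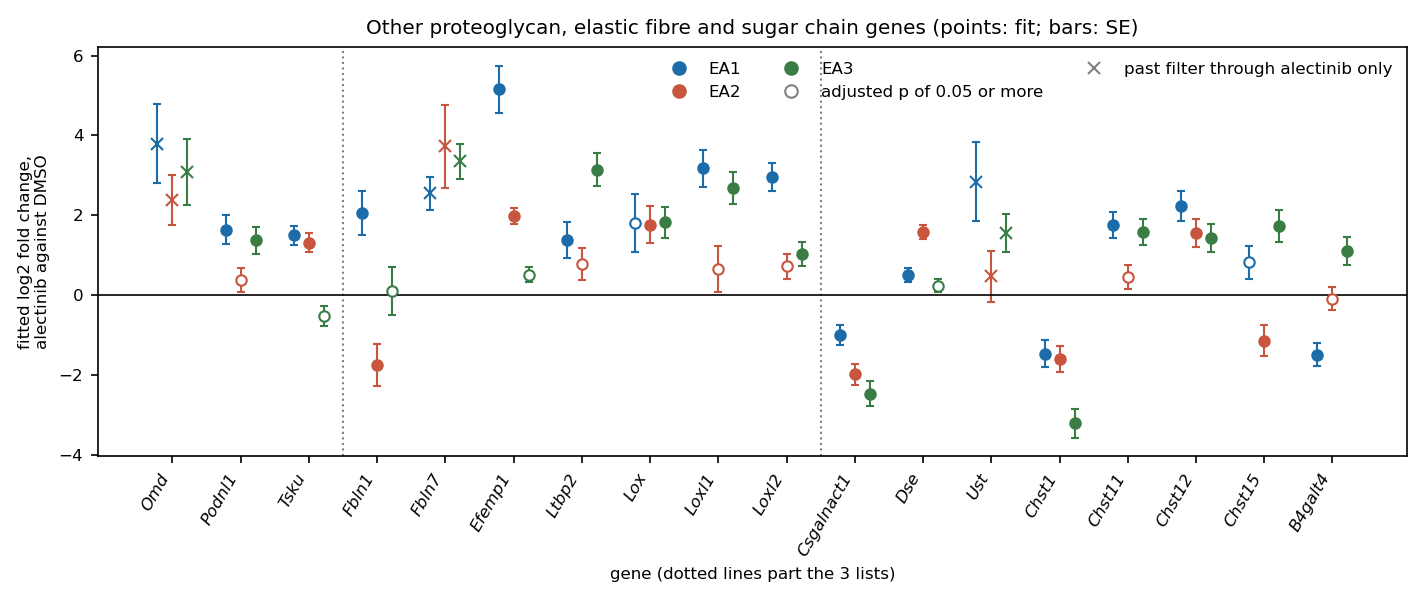
Fitted log2 fold change, alectinib against DMSO (vertical axis, points, with SE as bars), of 18 named genes (horizontal axis) from the lists of other small proteoglycans, elastic fibre assembly and glycosaminoglycan synthesis, in EA1, EA2 and EA3. Crosses mark Omd, Fbln7 and Ust, which passed the filter only through alectinib libraries and carry no call. Filled points have an adjusted p under 0.05, with Chst12 higher and Csgalnact1 and Chst1 lower in all 3 lines, and Fbln1, Chst15 and B4galt4 on opposite sides in different lines.

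Over the 24 libraries, Fmod varied most like Ccdc80 (Pearson r = 0.937 of log2 CPM), which encodes a secreted matrix protein, then Sync (0.906) and Akr1C14 (0.903), out of 12160 genes compared. Ccdc80 had means of 0.355 CPM with DMSO and 10.8 CPM with alectinib in EA1, 0.322 and 8.68 CPM in EA2, and 0.130 and 4.74 CPM in EA3. Fbln5 varied most like Maco1 (0.907), Dok4 (0.897) and Tsnax (0.893). Maco1 had its lowest mean in EA2 with DMSO (48.1 CPM) and its highest in EA1 with alectinib (105 CPM), the groups in which Fbln5 was also lowest and highest. Among the 10 genes, Fmod with Prelp, Fmod with Ogn and Ogn with Mfap5 each reached 0.79, and Dcn with Bgn was lowest at -0.54. The libraries share lines, treatments and days, so these values describe the set and are not tests.

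Markers of other cell types were read beside the members, because proteoglycan and elastic fibre genes are known from fibroblasts and smooth muscle. The summed level of 9 fibroblast markers was 13.2 to 48.6 CPM with DMSO and 127 to 524 CPM with alectinib in EA1, 19.8 to 25.9 and 35.1 to 103 CPM in EA2, and 16.6 to 24.4 and 84.0 to 242 CPM in EA3. The sum was higher with alectinib in each line without overlap. Of the 6 that could be tested, Col3a1 passed the filter only through alectinib libraries and carries no call here. Of the other 5, those called higher numbered 4 for EA1, 2 for EA2 and 3 for EA3, beside 18%, 13% and 16.5% of all genes. Col1a1 and Col1a2 were among them in each line, and Pdgfrb in EA1 and EA3. The Col1a2 call in EA1 rests on 0 counts with DMSO and 20 with alectinib over the 4 libraries. That of Pdgfrb in EA3 rests on 0 and 70, of which 62 were in 1 library. In both cases the treatments overlapped. Col6a3 was called higher in EA1 (2.34 ± 0.52), was at -1.30 ± 0.55 in EA2 (adjusted p = 0.105) and was called lower in EA3 (-1.61 ± 0.58, adjusted p = 0.0472), and Pdgfra was called in no line. Thy1 and Tcf21 had at most 4 and 0 counts over the 4 libraries of any group. The sum of 6 smooth muscle markers went from 4.37 to 9.46 CPM with DMSO to 638 to 939 CPM with alectinib in EA1, from 0.834 to 2.91 to 48.5 to 1270 CPM in EA2, and from 0.186 to 1.20 to 2.91 to 30.3 CPM in EA3. With alectinib, Acta2 made up most of it in each line, with means of 542, 446 and 13.2 CPM in EA1, EA2 and EA3. Of the 4 that could be tested, Cnn1 and Myh11 passed the filter only through alectinib libraries, and the other 2, Acta2 and Actg2, were called higher in each line. Outside EA1 the Actg2 calls rest on few counts. In EA3 it held 0 counts with DMSO and 12 with alectinib over the 4 libraries. In EA2 it held 2 and 41, of which 34 were in 1 library, and the groups overlapped. Cnn1 had mean daily log2 differences of 5.60 ± 0.61, 2.69 ± 1.85 and 2.87 ± 1.73 in the same order, and Actg2 of 5.81 ± 0.69, 1.62 ± 1.75 and 1.19 ± 0.50. The mean daily log2 difference of Tagln was 0.09 ± 0.83, 0.29 ± 0.83 and 0.83 ± 0.37, that of Des was 1.78 ± 1.69, -0.12 ± 0.24 and -0.52 ± 0.93, and that of Myh11 was 4.22 ± 0.53, 1.04 ± 1.18 and -0.01 ± 0.71. The sum of 7 epithelial markers was lower with alectinib in EA2 without overlap (1780 to 2720 against 550 to 1150 CPM) and overlapped in EA1 (4870 to 9420 against 3230 to 5320 CPM) and EA3 (4970 to 7050 against 3070 to 7140 CPM). Its members went both ways: Krt18 was called lower in each line and Krt8 in EA2, whereas Epcam was called higher in EA1 (2.41 ± 0.51, adjusted p = 0.00517) and Cdh1 in the other two lines (1.55 ± 0.20 and 0.62 ± 0.20, adjusted p = 0.000109 and 0.0297). All 5 leukocyte markers together never exceeded 1.18 CPM, and the 4 endothelial markers together never exceeded 9.55 CPM. In EA2 the endothelial sum was 1.94 to 5.76 CPM with DMSO and 0.166 to 1.01 CPM with alectinib, and in EA1 and EA3 it overlapped. Pecam1 had EA2 means of 2.22 CPM with DMSO and 0.389 CPM with alectinib. It passed the filter only through DMSO libraries and carries no call here. Of 4 mesothelial markers Msln carried nearly all counts, with log2 changes of 0.52 ± 0.20, 0.63 ± 0.19 and 1.16 ± 0.20 for EA1, EA2 and EA3, of which the latter pair passed the threshold (adjusted p = 0.059, 0.0304 and 0.000679). The mesothelial sum of EA3 was 310 to 479 CPM with DMSO and 670 to 1050 CPM with alectinib, and Wt1 had at most 1 count in any group. Of 5 lung epithelial markers, Sftpc had at most 1 count in any group and Nkx2-1 had 7 counts in 1 alectinib library of EA3 and at most 1 in any other group. Ager, of the same list, was read in every line at group means of 1.08 to 7.10 CPM and was called higher in EA3 (1.17 ± 0.36, adjusted p = 0.022). The part of fibroblast, smooth muscle, epithelial or mesothelial marker expression in the rises of the 10 genes was not tested.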

How the data were processed

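RNA was isolated from the 3 cell lines, and polyA libraries were made with a strand-marking kit and sequenced as paired reads. The authors checked the reads with FastQC, trimmed adapters with bbduk, aligned them with STAR to mm10 and counted reads per gene with STAR's own counter. The strand column and the annotation release are not given in the sources used here. The deposited table holds raw counts for 26 libraries. In it, 24 rows hold a date number in place of a symbol (0.1287 to 0.2014% of counts per library) and were dropped, which left 55391.

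Libraries were grouped by the line, treatment and day in their labels. Counts were scaled with TMM factors and tested with edgeR 4.0.16 (R 4.3.3, filterByExpr, robust quasi-likelihood F test, package default deviances), with Benjamini-Hochberg adjustment over all genes tested and a threshold of 0.05. The alectinib fit had a block for each line and day, since DMSO and alectinib libraries share the labelled day. The deviations of same-day libraries from their group means correlated at -0.299 to 0.549. The DMSO fits had line as the term. Fits were tested on simulated data. CPM are counts per TMM-scaled library total, and daily log2 ratios used a prior count of 2. Pooled ratios have exact 95% counting intervals.

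The members and gene lists were chosen with earlier results of these data known. Listed genes are named where called in at least 2 lines (up to 6 per list by mean absolute change) or called in opposite directions. Loxl3, Loxl4, Thsd4, Ltbp3 and the single marker genes were named after their values were seen. The 3 genes most like Fmod and Fbln5 had an average log2 CPM of at least 1. Bias-adjusted deviances in edgeR were added as an alternative after the data were seen. In all, 3 dispersion settings of the alectinib fit were compared by their gene counts, and the setting used first was kept. DESeq2 1.42.0 was another alternative. Gene positions came from GENCODE M21, which matched 55314 symbols and not 77.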

Additional observations from a re-analysis of the deposited data

Results flagged for a closer look

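A gene was picked out when its highest or lowest library in a line and treatment stood apart from the other 3 by Dixon's 95% critical value for 4 samples. Of 38 groups tested 7 were picked out. Chance picks out about 1 in 20 independent groups, but these groups share libraries: 4 of the 7 are the same library, EA3 with alectinib on day 5, so the 2 rates cannot be set against each other. Since the days form a time course, a library that stands apart may be a late time point and not a faulty one, and the part of time in these values was not tested. In EA3 with alectinib the day 5 library was high for Fmod (120 CPM), Prelp (156 CPM), Dcn (47.9 CPM) and Bgn (33.4 CPM). Ogn was high on day 5 of alectinib in EA1 (32.9 CPM), Bgn low on day 3 of DMSO in EA3 (5.86 CPM), and Fbln5 low on day 1 of alectinib in EA2 (2.04 CPM).

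The alectinib library labelled EA3 day 7, used in no comparison, held Fmod at 283 CPM, Ogn at 101 CPM, Dcn at 87.0 CPM, Prelp at 25.9 CPM, Fbln5 at 7.71 CPM and Mfap5 at 2.37 CPM. Each was above the DMSO library labelled EA3 day 7, which held Dcn at 41.1 CPM and Fmod at 0 counts. Bgn was at 1.19 CPM in the alectinib library, below all 8 libraries of EA3 on days 1 to 5 and within the range of EA2.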

How the results depend on the processing

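Of the fitted changes of the 10 genes with alectinib, 279 values under the alternatives stayed within 1 SD of the value given and 13 moved by more. The sign turned in 12, of Bgn in EA3 (-0.02, range -0.64 to 0.50) and Fbln5 in EA3 (0.05, range -0.16 to 1.06), both near 0 and not called, and in no other. Most of the 13 came from daily ratios with a prior count of 2, which pulls genes with few DMSO counts toward 0 (Fmod in EA2, for example, 5.60 in place of 8.72). The differences of Bgn and Fbn1 between lines in DMSO stayed past the threshold in all 78 values, and Dcn in EA3 against EA2 (-9.21) was at -2.46 with the DMSO library labelled day 7 included.

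With at least 10 counts in every library, fewer genes are tested. The differences between lines in DMSO then called 2177 genes (EA2 against EA1), 1651 (EA3 against EA1) and 1861 (EA3 against EA2). In EA1, EA2 and EA3 that filter left 1, 1 and 0 calls among the other small proteoglycans and 6, 5 and 6 in glycosaminoglycan synthesis, and in elastic fibre assembly 5 in EA1 and 5 in EA3. With no filter EA1 had 5 calls among the other proteoglycans and 14 in elastic fibre assembly. Each line fitted alone gave 1 call among the other proteoglycans in EA3. With all 24 libraries in 1 fit the DMSO difference of EA3 and EA1 called 4339 genes, and with all 13 DMSO libraries that of EA3 and EA2 called 1706.

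Leaving out each day in turn gave 2796 (without day 3) to 4088 genes with alectinib in EA1, 2142 (without day 3) to 2654 in EA2 and 2836 (without day 2) to 3889 in EA3. It gave 2495 to 3039 genes between EA2 and EA1 in DMSO, 1487 to 2279 between EA3 and EA1, 2018 to 2925 between EA3 and EA2, the lowest without day 2 or day 5, and 0 to 2538 for the DMSO slope. Calls ranged from 3 to 4, 1 to 2 and 1 to 2 for the other proteoglycans in EA1, EA2 and EA3, from 5 to 9, 8 to 10 and 5 to 11 for elastic fibre assembly, and from 5 to 8, 6 to 7 and 7 to 10 for glycosaminoglycan synthesis. The cause of these shifts was not tested, beyond the fewer libraries.

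Without the replicate block for line and day, no count of genes with alectinib moved by over 1.5 times (4461, 2850 and 4154 in EA1, EA2 and EA3). In the DMSO fits, a replicate block for day raised the counts to 5259 (EA2 against EA1), 4206 (EA3 against EA1) and 4699 (EA3 against EA2) and gave -1.98 for Prelp between EA3 and EA1. Bias-adjusted deviances in edgeR, chosen after seeing the data, called 5244, 3675 and 4984 genes with alectinib in EA1, EA2 and EA3 in place of 4820, 3464 and 4602, and gave -1.89 for the same Prelp difference. Depth limits Lum, Eln and Mfap5, and Dcn, Fmod and Ogn in lines with 0 to 5 DMSO counts, to lower bounds or wide intervals.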
